A study of Mus musculus with 4 samples.

Results

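The barcodes described here are epithelial cells of the Tbx1Cre lineage at embryonic day (E) 9.5 in which the endoderm genes Foxa1, Foxa2 and Pax1 were not detected. A barcode was selected on its own counts: 3 or more unique molecular identifiers (UMIs) of Epcam, which encodes an epithelial adhesion molecule, none of Foxa1, Foxa2 or Pax1, and at most 2 of the endothelial genes Cdh5 and Pecam1 together. The rule found 361 of 5453 barcodes in the control library and 128 of 6266 in the mutant library, 489 of the 11719 E9.5 barcodes and of 14243 in the series. These values chose the barcodes and are not results. In each library 1 count per gene is a count of molecules read at the 3′ end of a transcript.

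The mice were of the Swiss Webster strain. The control (Ctrl) embryos were Tbx1Cre/+;Rosa26-GFPflox/+ and the conditional knockout (cKO) embryos were Tbx1Cre/flox;Rosa26-GFPflox/+. The Cre gene is inserted in the Tbx1 locus and takes out 1 copy of Tbx1, so the Ctrl cells were heterozygous and the cKO cells lost the remaining copy wherever Cre was made. Embryos of 1 genotype were pooled, the pharyngeal apparatus and heart with the back were dissected, and GFP-positive cells that excluded the dead-cell dye DAPI were sorted. The Ctrl pool held more embryos than the cKO pool. Each group was 1 library, so genotype, library and pool of embryos cannot be told apart, no difference has a replicate check, and all intervals below cover counting error only, at 95%.

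Tbx1 encodes a T-box transcription factor that is active in the pharyngeal endoderm and mesoderm and in the otic vesicle, the rudiment of the inner ear. The otic vesicle invaginates from a thickened patch of ectoderm, the otic placode, and forms both sensory and non-sensory epithelium and the neurons of the cochleovestibular ganglion. Epibranchial placodes lie beside the pharyngeal clefts. Their cells turn on Neurog2 and then Phox2a, and leave the epithelium as neuroblasts of the cranial sensory ganglia. In the otic vesicle, loss of Tbx1 is known to expand the neurogenic region at the expense of other otic epithelium. Surface ectoderm outside the placodes carries Trp63 and Wnt6.

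The median depth of the members was close in both libraries. A member had a median of 18377 UMIs and 4201 genes in Ctrl and of 18193 UMIs and 3906 genes in cKO. Genes were compared as UMIs per 1000000 UMIs (UPM) summed over the members, which held 6991735 UMIs in Ctrl and 2506703 in cKO, over 27514 genes listed for both libraries. The cKO library had been counted on a larger gene table. Xist, transcribed from the inactive X chromosome, had a UMI in 44.0% of Ctrl and 85.2% of cKO members, and the part of the sex of the pooled embryos in any difference was not tested. No member barcode was shared by the E9.5 libraries. A member carried at least 2 different genes of the mesenchyme, endothelial or heart muscle marker lists in 74 of 361 Ctrl cases (20.5%) and 40 of 128 cKO cases (31.2%), and no doublet caller was run.

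The name of the group, epithelium of otic or surface type, held only in part. Epcam ranged from 3 to 26 UMIs with a median of 8 in Ctrl members and from 3 to 23 with a median of 7 in cKO members. Just inside the limit, 25 Ctrl and 19 cKO members had exactly 3 Epcam UMIs, and just outside it 22 Ctrl and 34 cKO barcodes had 2. A single UMI of an endoderm gene kept out another 77 Ctrl and 17 cKO barcodes. Cldn6, a tight junction gene of early epithelia, had a UMI in 360 of 361 and in 120 of 128 members, so the members were epithelial by a gene the rule did not use.

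Oc90, the otoconial matrix gene that marks the otic vesicle, was found in 8 of 361 Ctrl members with 20 UMIs in all and in none of the 128 cKO members. Pax2, a transcription factor of the otic placode, was found in 23 Ctrl and 6 cKO members. Trp63, the regulator of stratified epithelium, was found in 49 Ctrl and 17 cKO members. Most members carried none of these 3 genes. Nkx2-6, a homeobox gene of pharyngeal endoderm, was found in 175 Ctrl and 35 cKO members, although the rule had kept out the endoderm genes Foxa1, Foxa2 and Pax1. In mesenchymal barcodes of the same libraries, thinned like the members to 10000 UMIs each, Oc90, Pax2 and Trp63 were at 0 of 245 Ctrl and 0 of 274 cKO barcodes and Nkx2-6 was in under 1% (0.816% and 0.730%). With the same thinning Nkx2-6 was in 40.1% of 344 Ctrl and 23.0% of 126 cKO members. The group is therefore called here by its rule, Epcam-high members, and not by a cell type.

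Members were then sorted by 3 lists of 5 markers: otic (Oc90, Pax2, Pax8, Sox10, Fbxo2), surface (Trp63, Wnt6, Grhl3, Krt5, Tfap2a) and endoderm genes outside the rule (Pax9, Nkx2-3, Nkx2-6, Shh, Foxe1). A member was called marked for a list when at least 2 different genes of it had a UMI and no other list had as many. In Ctrl there were 59 otic-marked, 97 surface-marked, 55 endoderm-marked and 150 unassigned members. In cKO there were 3 otic-marked, 31 surface-marked, 10 endoderm-marked and 84 unassigned members. Otic-marked members were 16.3% of Ctrl members (12.7 to 20.6%, exact Clopper-Pearson interval) and 2.34% of cKO members (0.486 to 6.70%), a difference of -14.0 percentage points (-18.4 to -8.47). Surface-marked members were 26.9% and 24.2% of the members, a difference of -2.65 points whose interval (-10.8 to 6.53) held 0. Under this class limit the otic-marked share was lower in cKO beyond counting error, and the surface-marked share was not separable.

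The class limits were thin. Of the 59 otic-marked Ctrl members, 46 had exactly 2 genes of the list and 13 had 3 or more. Among unassigned members, 121 in Ctrl and 76 in cKO had at most 1 gene of each list, and 29 and 8 had equal numbers from several lists. With at least 3 genes required, otic-marked members were 13 in Ctrl and 1 in cKO, and the difference in share was -2.82 points, with an interval (-5.36 to 0.99) that held 0. Asking instead for 2 or more UMIs of Oc90 and Pax2 together left a difference of -2.22 points (-4.31 to 0.89), which held 0 as well. Outside the rule, in barcodes that were not endoderm either, 3 or more otic genes were found in 1 Ctrl and 1 cKO barcode. With 2 or more otic genes and 1 or 2 UMIs of Epcam there were 1 Ctrl barcode, against 59 otic-marked members, and 3 cKO barcodes, against 3.

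Taken over all barcodes of a library, the otic-marked, surface-marked, endoderm-marked and unassigned classes were all smaller in cKO. Members were 6.62% of Ctrl barcodes (5.97 to 7.31%) and 2.04% of cKO barcodes (1.71 to 2.42%). Otic-marked members went from 1.08% to 0.0479%, surface-marked members from 1.78% to 0.495%, endoderm-marked members from 1.01% to 0.160% and unassigned members from 2.75% to 1.34%. The pharyngeal endoderm of the same libraries, with Epcam and at least 1 UMI of Foxa1, Foxa2 or Pax1, went from 6.73% to 1.17%. A share of a sorted library depends on how many other cells were sorted, and each pool was dissected once, so the difference in share was not tested against other causes.

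**Figure D1:**
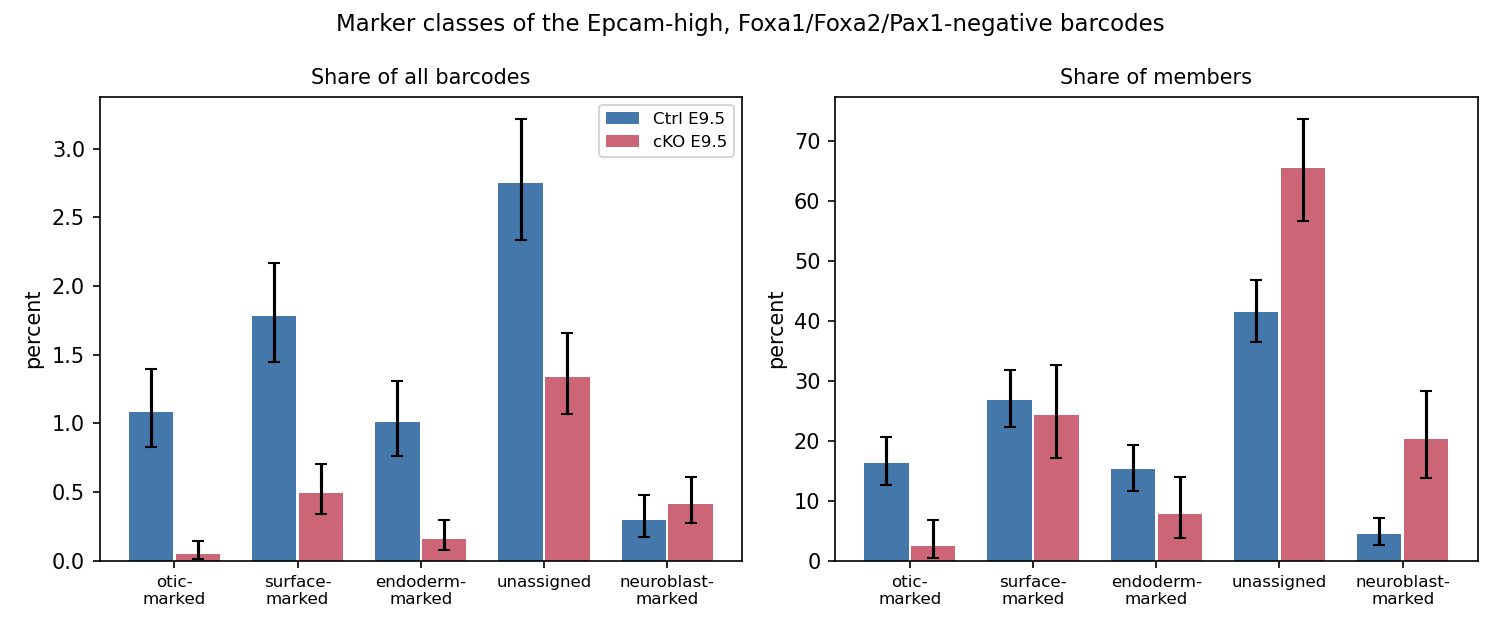
Share of all barcodes (left) and of members (right), in percent, in each marker class of the Ctrl and cKO E9.5 libraries; bars start at 0 and error bars are exact 95% counting intervals. Otic-marked members are 16.3% of Ctrl and 2.34% of cKO members, while neuroblast-marked members, a class that overlaps the others, are 4.43% and 20.3%.

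In the Ctrl library the otic-marked members also differed in genes outside the 3 class lists, several of them on the otic patterning list. Compared with surface-marked members, which is a description since the classes were cut from the same counts, Spp1 (osteopontin) was at 90.4 against 0.561 UPM, Hmx2, a homeobox gene of the vestibular inner ear, at 61.5 against 0.561, Lmx1a, a LIM homeobox gene of non-sensory otic epithelium, at 56.9 against 2.80, and Sox9 at 169 against 14.0. Cdh2, Cnp, Col9a3 and Dlx5 were among the 15 leading genes as well. Surface-marked members were led by Cd36, Vgll2 (268 against 8.57 UPM), Sostdc1 (360.1 against 11.7 UPM) and Fgf8 (331 against 28.8 UPM), a ligand of pharyngeal cleft and pouch epithelium. Nkx2-6 was among their 15 leading genes too (86.4 against 9.35 UPM), so surface-marked members held pharyngeal genes beside ectodermal ones.

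Before genes are compared by genotype, the general shift is given once. Among 9013 genes with at least 50 UMIs over both libraries, the median log2 ratio of cKO to Ctrl was -0.21, so list medians are read against that value. Past 2-fold, 163 genes were higher in cKO (1.81%) and 447 lower (4.96%). With the size factors of DESeq2 the numbers were 226 higher and 296 lower, and with the TMM factors of edgeR 221 and 299, so the split between higher and lower genes depended on the scaling. Either scaling raised each log2 ratio of the members by 0.15, so the direction of ratios just below 0 depended on it too.

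Otic patterning genes were mostly lower in cKO members. Of 24 listed genes 21 had at least 20 UMIs. Of these, 11 were past 2-fold lower, beside 4.96% of all genes, none was past 2-fold higher, and the list median was -1.05 log2. Without the otic-marked members 7 of 20 were past 2-fold lower and none higher, beside 4.39% and 1.77% of 8655 genes. The remaining members still held otic genes, so this count cannot show a fall outside otic cells. In Ctrl, unassigned members had 39 of 118 Lmx1a UMIs and 61 of 178 Spp1 UMIs. With the ratio of all other barcodes subtracted 5 of 21 were past 2-fold lower. Of all 9013 genes, 0.854% were past 2-fold lower both before and after subtraction.

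Lmx1a had 118 UMIs in 53 Ctrl members and 2 UMIs in 2 cKO members, 16.9 against 0.798 UPM, a log2 ratio of -4.40 (-7.47 to -2.52). Spp1 had 178 UMIs in 36 Ctrl members and 4 in 2 cKO members, a log2 ratio of -4.00 (-5.89 to -2.61), whereas in all other barcodes of the libraries Spp1 was higher in cKO by 1.74. These are 2 genes of the otic vesicle wall that were almost missing from cKO members. Dlx5, a homeobox gene needed for the dorsal otic vesicle, had 261 UMIs in 79 Ctrl members and 23 in 12 cKO members, at -2.02 (-2.71 to -1.41). In the other barcodes Dlx5 was at -1.66. Hmx3 was at -1.77 (57 and 6 UMIs), Otx2, a gene of ventral otic epithelium and of the head, at -1.62 (60 and 7 UMIs), and Hmx2 at -0.95 (-1.66 to -0.30), which did not pass 2-fold.

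Signalling genes of the otic list were lower too. Bmp4, which marks prospective sensory cristae, had 369 UMIs in 126 Ctrl members and 43 in 27 cKO members, a log2 ratio of -1.62 (-2.11 to -1.16). Thinned, it was in 27.0% and 13.5% of members and in 32.7% and 24.1% of mesenchymal barcodes, so its share in members was not above that level. Fgf3 was at -1.64 (78 and 9 UMIs) and Fgf10, a ligand of the neurosensory region, at -1.24 (46 and 7 UMIs). In the other barcodes, which include the endoderm, Fgf3 and Fgf10 were lower by at least as much (ratios of -1.89 and -1.72). Within the endoderm, however, Fgf3 was at 70.3 UPM in Ctrl and 87.2 in cKO, against 11.2 and 3.59 in members. Fgf10 was lower in the endoderm too (56 and 2 UMIs). Bmp7 was at -1.05 and the Notch ligand gene Jag1 at -0.91.

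The transcription factor genes Gata3 and Sox9 were lower by a similar size, at -1.13 (-1.50 to -0.77) and -1.17 (-1.58 to -0.78). Sox9 was, thinned, in 26.2% and 16.7% of members and in 56.7% and 49.6% of mesenchymal barcodes, again not above that level. Gata3 had 463 UMIs in 186 Ctrl members and 76 in 44 cKO members. In Foxa1-, Foxa2- or Pax1-positive endoderm of the same libraries Gata3 was at -0.02 (-0.32 to 0.26) and Sox9 at 0.41, so both counting intervals of the endoderm lay above those of the members. The general placodal gene Eya1, which is shared with pharyngeal epithelium, was at -0.11 (-0.38 to 0.17), close to the median of all genes.

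Genes of the otic class list itself followed the same order. Sox10 had 109 UMIs in 54 Ctrl members and 8 in 5 cKO members, at -2.29 (-3.54 to -1.26). Fbxo2, an inner ear ubiquitin ligase gene, had 108 UMIs in 54 and 12 in 7 members, at -1.69 (-2.69 to -0.83). Pax8, an early otic and epibranchial gene, had 298 UMIs in 130 Ctrl and 69 in 45 cKO members, at -0.63 (-1.03 to -0.25), and it was at 0.53 in the other barcodes. Oc90 had 20 and 0 UMIs, which makes it at least 2.39-fold lower when the cKO sum is set to 3 UMIs. Pax2 (27 and 6 UMIs) had an interval from -2.26 to 0.62 and was not separable at this depth. Thinned to 10000 UMIs, Sox10 was found in 10.5% of 344 Ctrl members (7.44 to 14.2%) and 1.59% of 126 cKO members (0.193 to 5.62%), and in no mesenchymal barcode of either library. Lmx1a was then in 9.01% and in 0 of 126, which by the limit of 3 counts allows a share of members with a UMI of up to 2.38% at that depth, and unthinned it was in 2 of 128.

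Sox10 and Tfap2b are markers of neural crest as well. The 5 genes of the neural crest list summed to 40.8 UPM in Ctrl and 10.4 UPM in cKO members, from 0 to 539 and from 0 to 247 UPM in single members, and 37 Ctrl and 2 cKO members had at least 2 of them. Foxd3, the early neural crest gene of that list, was at 0 in both libraries. All 4 measured genes of the list were past 2-fold lower, beside 4.96% of all genes. Without the otic-marked members 2 of 4 were, beside 4.39%. Sox10 is a gene of the otic class list, so its level in otic-marked members cannot tell otic cells from neural crest.

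Otic-marked cells of the cKO library were only 3 barcodes, with 56621 UMIs in all, so few ratios could be read within that class. No count or median over the otic patterning list is given, since a cKO sum of 0 set to 3 UMIs can stand above the Ctrl level in so few barcodes. Hmx2 and Sox9 lay within their counting intervals of no change. The genes highest by the fixed rule were Hes6, Cotl1, Tmsb4x, Xpo1, Ccnd1, Svbp, Pithd1 and Ssbp3, from 5.79-fold for Hes6 (90 UMIs in 44 Ctrl and 23 UMIs in 3 cKO members) to 2.38-fold for Ssbp3. Of the 23 Hes6 UMIs 21 were in 1 barcode, as were 16 of 17 for Cotl1, 174 of 194 for Tmsb4x and 35 of 38 for Ccnd1. With 50 UMIs and no gene left out, genes past 2-fold in both ways were 1.92% (higher) and 11.2% (lower) of 3653 genes of that class. The 8 lowest, Ldhb, Eif3d, Ddx18, Cops3, Mmd, Lsr, Nae1 and Dlx5, each rested on 1 cKO UMI, with upper interval ends between -1.03 and -0.37.

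**Figure D2:**
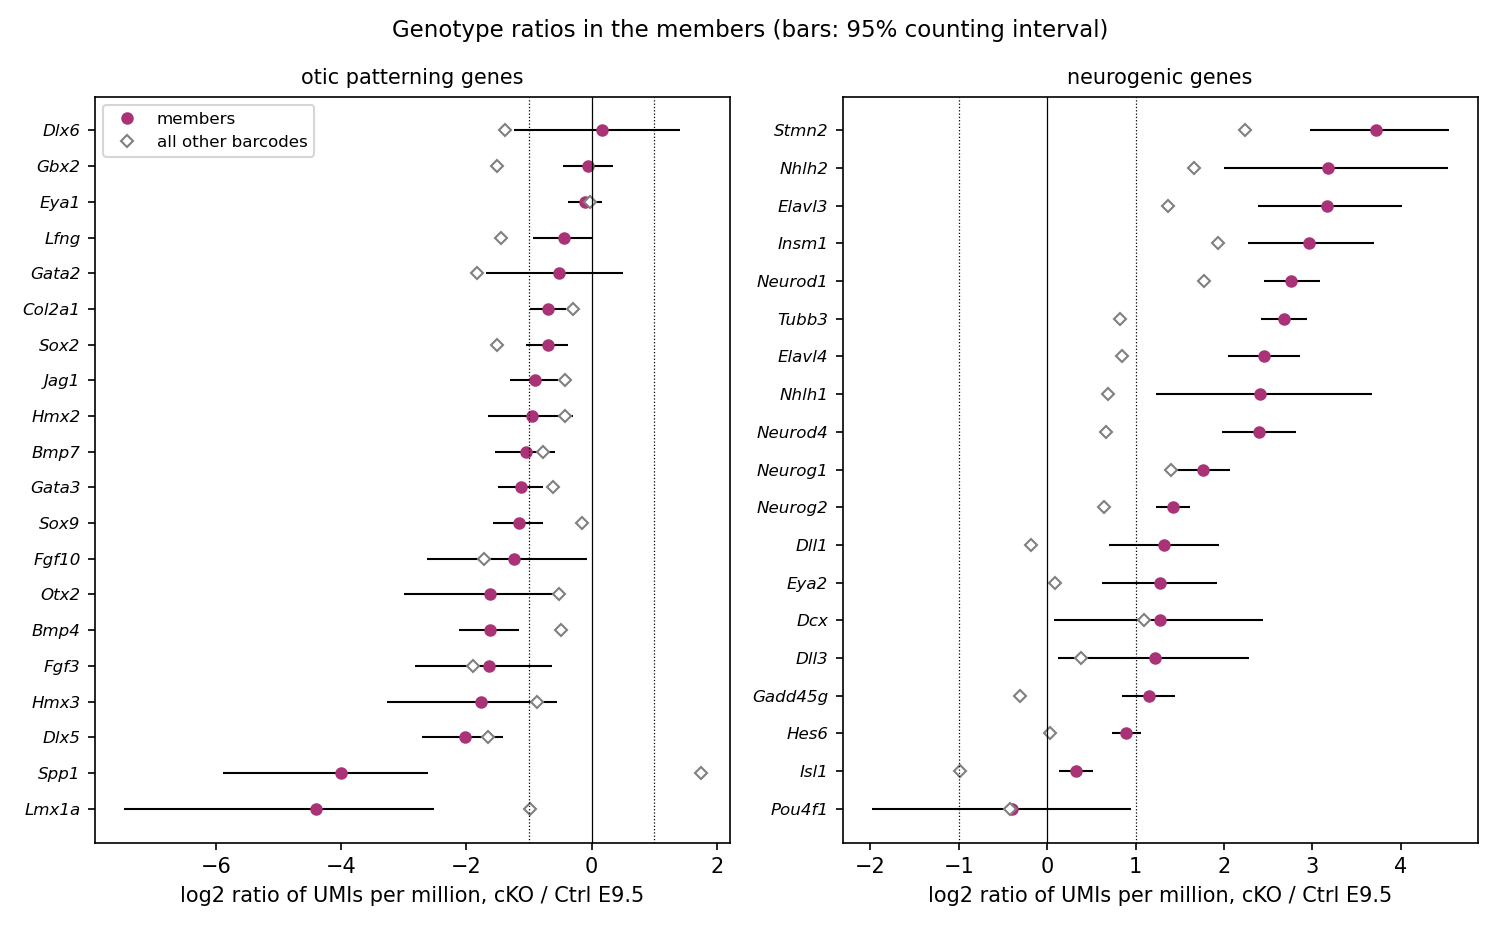
Log2 ratio of UPM, cKO over Ctrl E9.5, for otic patterning (left) and neurogenic genes (right) with at least 20 UMIs; filled points are the members with 95% counting intervals, open diamonds all other barcodes, and dotted lines mark 2-fold. Lmx1a and Spp1 are lowest at -4.40 and -4.00, and most neurogenic genes lie at 2-fold or more; some list genes are not drawn.

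Neurogenic genes were higher in cKO members. Of the 20 listed genes, all with at least 20 UMIs, 17 were past 2-fold higher, beside 1.81% of all genes, none was past 2-fold lower, and the median was 2.03 log2. In the other barcodes of the libraries the ratio was above 0 for most of these genes as well, and with it subtracted 13 of 20 stayed past 2-fold. Of all 9013 genes, 0.577% were past 2-fold higher both before and after subtraction.

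Neurog1, the proneural gene of otic and trigeminal neuroblasts, had 167 UMIs in 22 Ctrl members and 203 in 37 cKO members, a log2 ratio of 1.76 (1.46 to 2.07). Neurog2, its epibranchial counterpart, had 448 UMIs in 61 and 431 in 45 members, at 1.42 (1.23 to 1.62). The share of members with these genes was larger in cKO, after thinning 5.52% against 27.0% for Neurog1 and 13.7% against 30.2% for Neurog2. Mesenchymal barcodes had Neurog1 in 2.04% and 2.92% and Neurog2 in 0% and 0.365%, so the member shares stood above that background. Neurod1, which follows the proneural genes in delaminating neuroblasts, had 120 UMIs in 16 Ctrl members and 292 in 26 cKO members, at 2.76 (2.45 to 3.08). Neurod4 was at 2.39 (75 and 141 UMIs).

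The visceral sensory gene Phox2a, which marks epibranchial and not otic neuroblasts, was also higher. Phox2a, named after its values were seen, had 333 UMIs in 52 and 435 in 58 members, at 1.87 (1.66 to 2.08). Among later neuronal genes, Stmn2 was at 3.72 (18 and 85 UMIs), Nhlh2 at 3.18, Elavl3 at 3.17, Insm1 at 2.96 (24 and 67 UMIs) and the neuronal tubulin gene Tubb3 at 2.68 (179 and 410 UMIs), with Elavl4 at 2.45 and Dcx at 1.27 (15 and 13 UMIs, 0.08 to 2.45). Stmn2 rested on 8 cKO members, and 45 of its 85 UMIs were in 1 of them. Hes6 (0.90) and Isl1 (0.32) did not reach 2-fold, and Pou4f1, of somatosensory neurons, had 22 and 6 UMIs and was not separable (-1.99 to 0.95).

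The promoters of genes from the lists that moved most are shown so that their start regions can be compared. The sequences are the 250 bases before the RefSeq transcription start (GRCm38.p6), 5′ to 3′ on the gene's strand, in lower case with any CAGATG (an E-box that proneural factors can bind) or GGTGTG (the core of a T-box site), on either strand, in capitals. Neurod1 lies on chr2:79456637-79456886 (minus strand), Neurod4 on chr10:130280255-130280504 (minus), Lmx1a on chr1:167689308-167689557 (plus) and Spp1 on chr5:104434861-104435110 (plus).
Neurod1: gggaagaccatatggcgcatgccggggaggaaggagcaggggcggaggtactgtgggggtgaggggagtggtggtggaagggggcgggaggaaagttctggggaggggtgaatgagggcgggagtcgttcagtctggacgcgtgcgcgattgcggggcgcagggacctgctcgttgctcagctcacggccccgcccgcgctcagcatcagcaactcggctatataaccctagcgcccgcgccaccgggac
Neurod4: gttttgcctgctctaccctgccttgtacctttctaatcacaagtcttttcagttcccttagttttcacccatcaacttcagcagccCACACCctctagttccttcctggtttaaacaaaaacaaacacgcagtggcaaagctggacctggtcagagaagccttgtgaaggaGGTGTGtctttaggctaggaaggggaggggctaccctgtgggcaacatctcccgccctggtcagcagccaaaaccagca
Lmx1a: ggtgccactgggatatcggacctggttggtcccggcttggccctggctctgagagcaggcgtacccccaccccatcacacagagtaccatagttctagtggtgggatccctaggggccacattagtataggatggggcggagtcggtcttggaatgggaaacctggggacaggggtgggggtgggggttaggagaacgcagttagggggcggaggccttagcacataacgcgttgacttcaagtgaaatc
Spp1: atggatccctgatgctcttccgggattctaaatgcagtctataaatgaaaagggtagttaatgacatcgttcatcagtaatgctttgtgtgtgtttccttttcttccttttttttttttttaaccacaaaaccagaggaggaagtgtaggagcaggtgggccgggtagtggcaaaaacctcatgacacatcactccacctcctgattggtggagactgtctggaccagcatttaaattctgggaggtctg

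Only the Neurod4 window held a searched motif, GGTGTG on each strand. Among the 16 neurogenic genes with a promoter in the table, 2 held CAGATG (12.5%) and 3 held GGTGTG (18.8%), and among 16 otic patterning genes 2 held each. Of 27025 promoters of the same length, 14.5% held CAGATG and 16.2% held GGTGTG, so neither list stood far from the general share. These matches describe letters and say nothing of binding.

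The higher neurogenic sums came largely from a small number of members. A member was called neuroblast-marked, by a rule set after the values were seen, when at least 2 of 5 neuroblast genes had a UMI, Neurod1, Neurod4, Elavl4 and Stmn2 among them. There were 16 such members in Ctrl (4.43%, 2.55 to 7.10%) and 26 in cKO (20.3%, 13.7 to 28.3%). Of them 13 and 24 were unassigned, 3 and 2 surface-marked and none otic-marked. Set against all barcodes of a library, however, the same members were 0.293% of Ctrl (0.168 to 0.476%) and 0.415% of cKO (0.271 to 0.607%), a difference of 0.12 points (-0.10 to 0.34) that was not separable from 0. The neuroblast-marked share of members thus rose while the members became fewer. Neuroblast-marked barcodes with any Epcam count were 53 in Ctrl (0.972% of barcodes, 0.729 to 1.27%) and 120 in cKO (1.92%, 1.59 to 2.29%), of which 30.2% and 21.7% were members.

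**Figure D3:**
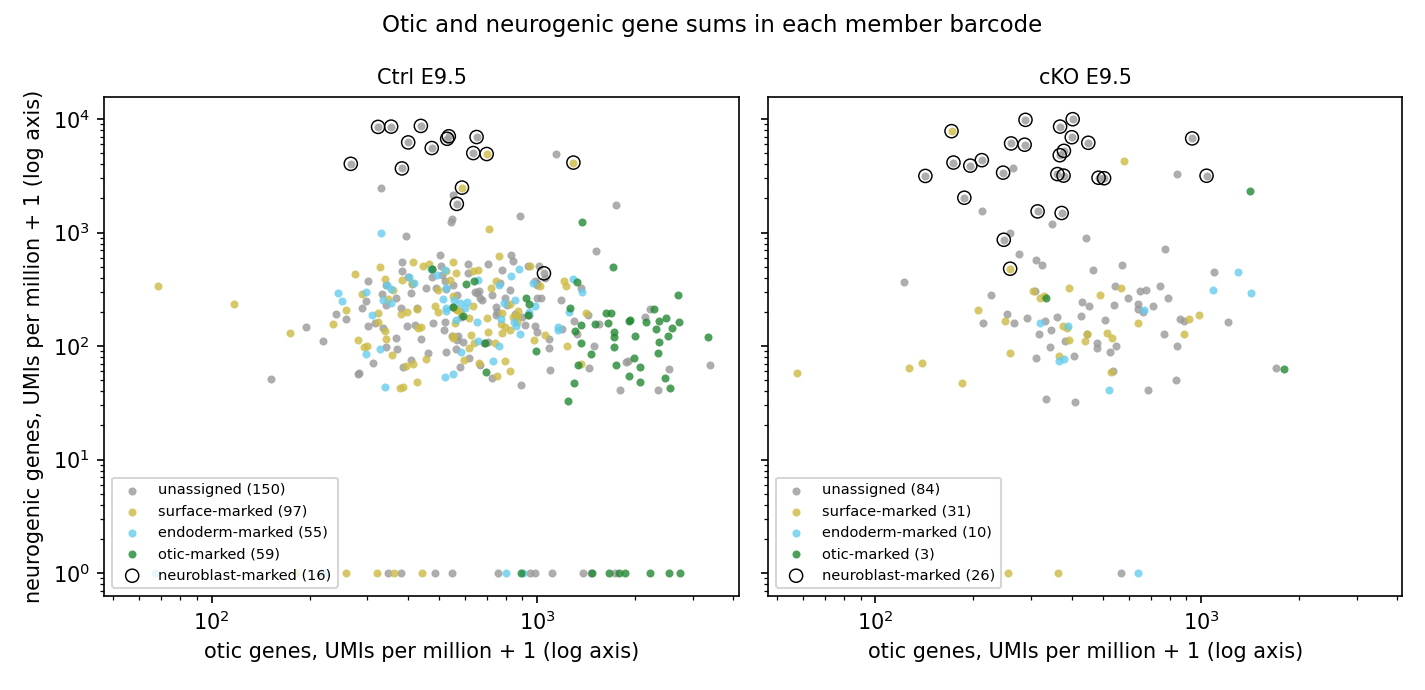
Each point is 1 member, placed by the summed level of otic genes (horizontal) and of neurogenic genes (vertical) in UPM + 1 on log axes, coloured by marker class, with rings around neuroblast-marked members. At 1000 UPM or more, Ctrl has 92 members for the otic and 24 for the neurogenic sum, and cKO has 9 and 30.

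The otic sum of single members had a median of 644 UPM in Ctrl members (quartiles 426 and 1009) and 401 UPM in cKO members (309 and 606). The neurogenic sum had medians of 184 and 224 UPM, but its upper quartile was 339 in Ctrl and 870 in cKO, and its highest values were 8715 and 9989. The middle of the neurogenic sum was therefore close in both libraries and its upper part was not.

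Without the neuroblast-marked members, 345 Ctrl and 102 cKO members remained and fewer neurogenic genes differed. The members left out were chosen by genes of the neurogenic list, so a fall of that list was built in. Of 12 genes that still had 20 UMIs, 6 were past 2-fold higher, beside 1.3% of 8789 genes, and the median of the 12 was 0.92. Over the genes measured before, which include some now under 20 UMIs, the median was 0.57. Neurog1 (9 of 60 unassigned cKO members against 3 of 137 in Ctrl) was higher in unassigned members, with a log2 ratio of 1.91 (1.21 to 2.63). The otic patterning list stayed lower, with 8 of 21 genes past 2-fold, beside 5.02% of genes, and a median of -0.84.

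In the neuroblast-marked members, 16 Ctrl and 26 cKO barcodes, Neurod1 was at 0.26 (-0.07 to 0.59) and Neurod4 at -0.10 (-0.52 to 0.32). Stmn2 had 1 UMI in Ctrl and 78 UMIs in 5 cKO barcodes, at 5.25 (2.73 to 10.6). The earlier genes Neurog2 (-0.84, -1.09 to -0.58), Neurog1 (-0.73) and Gadd45g (-1.23) were lower in cKO and Tubb3 was higher (0.43, 0.15 to 0.71). Krt8 and Krt18, keratins of simple epithelia, were at -1.70 (274 and 173 UMIs) and -1.78 (114 and 68 UMIs). Median Epcam in these members was 6.5 UMIs in Ctrl and 5 in cKO. Among them 0 of 16 Ctrl but 9 of 26 cKO barcodes carried at least 2 markers of mesenchyme, endothelium or heart muscle, and 0 and 5 were above the 95th percentile of UMIs of their library. Without every member that carried such markers the neurogenic median was 1.27, and 12 genes were past 2-fold higher.

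Over all genes, by the fixed rule, which asks for 100 UMIs and for 2-fold also after the other barcodes are subtracted, 32 genes could be named as higher and 27 as lower. With 50 UMIs and no gene left out, the 2-fold conditions were met by 0.577% and 0.854% of 9013 genes. The 10 highest were Tlx2, Stmn2, Sct, Rgs4, Slamf1, Lmo1, Tubb3, Nefm, Ppp1r14a and Elavl4. Tlx2, a homeobox gene of peripheral neurons, had 31 UMIs in 9 Ctrl members and 154 in 18 cKO members, at 3.79 (3.23 to 4.40), all 154 of them in neuroblast-marked members. Sct (secretin) had 59 UMIs in 15 and 219 in 27 members, at 3.37. Lmo1, a LIM-only gene, had 45 UMIs in 35 and 108 in 41 members, at 2.74 (2.23 to 3.28), and was at -0.71 in the other barcodes. Nefm, a neurofilament gene, had 71 and 154 UMIs, at 2.60, and 62 and 153 of these UMIs were in neuroblast-marked members.

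Among the 10 lowest were Raver1, Lmx1a, Spp1, Serpinb6b, Pax9, Adgrl3, Rgs5, Sp5 and Scd1. Raver1 had 311 UMIs in 202 Ctrl members and 1 in cKO, but it was low in the other cKO barcodes as well (the ratio of the members was -6.80, and -1.80 after theirs was subtracted), and the libraries were counted on different gene tables, so it is not read as a difference of the members. Serpinb6b, a serpin gene, had 124 UMIs in 62 Ctrl members and 4 in 3 cKO members, at -3.47 (-5.37 to -2.08). Its Ctrl UMIs were in all 4 classes: 16 in otic-marked, 45 in surface-marked, 21 in endoderm-marked and 42 in unassigned members. Serpinb6b was also lower in the other cKO barcodes, at -1.83, and the members were at -1.65 with these subtracted. Endoderm barcodes held 49 of its UMIs in the Ctrl library and 0 in the cKO library. Its lower level was thus not confined to the members, and the part of the different gene tables was not tested. Scd1, a fatty acid desaturase gene, was at -1.70 (118 and 13 UMIs). Of its Ctrl UMIs 40 were in otic-marked members. The 3 otic-marked cKO members had none, but they were too few for a count of 0 to be read. Sp5, a target of Wnt signalling, was at -1.76 (161 and 17 UMIs).

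Genes of surface and placodal ectoderm differed less than the otic patterning and neurogenic lists. On the list of 17 genes 13 had 20 UMIs, with 2 past 2-fold lower (Tfap2b and Dlx3), none higher and a median of -0.03. Of all genes, 4.96% were past 2-fold lower and 1.81% higher. Foxi2, a forkhead gene of the ectoderm around the placodes, had 1037 UMIs in 213 Ctrl and 428 in 105 cKO members, at 0.20 (0.04 to 0.37). Thinned, it was in 53.2% and 69.8% of members and in under 1% of mesenchymal barcodes. Tfap2a, of early ectoderm and neural crest, had 371 and 170 UMIs, at 0.35 (0.08 to 0.62), and Trp63 90 and 34 UMIs, at 0.08 (-0.54 to 0.66). Wnt6 went the other way, with 584 UMIs in 163 Ctrl members and 113 in 41 cKO members, at -0.89 (-1.19 to -0.60). Fgf8 was at 0.09 (-0.03 to 0.21) in members but at -1.28 (-1.48 to -1.07) in the endoderm.

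Surface-marked members, 97 in Ctrl and 31 in cKO, were also compared by genotype. Their make-up need not be alike in the 2 libraries. Markers of mesenchyme, endothelium or heart muscle, at least 2 of a list, were in 16.5% of them in Ctrl and 29.0% in cKO. Past 2-fold, 1.09% of 5223 genes were higher and 5.71% lower, with a median of -0.19. Of the otic patterning list 13 genes had 20 UMIs, 5 were past 2-fold lower (Dlx5, Otx2, Gbx2, Eya1 and Sox2) and none was higher. Eya1 had 122 UMIs in 58 Ctrl members and 19 in 12 cKO members, at -1.15 (-1.93 to -0.44). Bmp4 was at -0.74 and Gata3 at -0.90, without passing 2-fold. With the other barcodes subtracted the median of these 13 genes was 0.07.

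The neurogenic ratios of surface-marked members rested on very few barcodes. Tubb3 had 9 UMIs in 7 Ctrl members and 86 in 3 cKO members, Stmn2 4 in 3 and 52 in 3, and Neurod1 3 in 2 and 22 in 1 cKO member. The median of the 9 neurogenic genes measured was 1.71, it was 0.46 without the neuroblast-marked members, and it was -0.10 without barcodes above the 95th percentile of UMIs. Krt8 (583 and 120 UMIs, -0.74) and Krt18 (866 and 180 UMIs, -0.73) were lower in surface-marked members by a similar amount.

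Of the 5 endoderm class genes 4 were measured and 3 were past 2-fold lower, beside 4.96% of all genes. Pax9 had 187 UMIs in 72 Ctrl members and 12 in 5 cKO members, at -2.48 (-3.46 to -1.64). Mesenchymal barcodes held Pax9 in 20.8% and 16.8% after thinning, against 13.4% and 1.59% of members, so its share in members was not above that level. Nkx2-6 had 583 UMIs in 175 and 95 in 35 members, at -1.14 (-1.47 to -0.82), yet it was at -2.42 in the other barcodes and thus at 1.28 with these subtracted. Nkx2-3 had 136 and 54 UMIs and a ratio of 0.15, with an interval (-0.34 to 0.61) that held 0. Foxe1, a thyroid and pharyngeal gene, had 34 and 0 UMIs, at least 4.06-fold lower. Of the other endoderm list 6 of 10 genes were measured and 3 were past 2-fold lower: Hhex (48 and 3 UMIs), Sox17 (33 and 1) and Nkx2-1 (20 and 0). Pax9 was lower in the endoderm barcodes as well, at -1.27 (-1.61 to -0.96), above the interval of the members.

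Epithelial junction and keratin genes lay mostly within 2-fold. All 16 listed genes were measured, 1 was past 2-fold lower and none higher, beside 4.96% and 1.81% of all genes. The list median was -0.49. Cldn6 had 3158 and 988 UMIs, at -0.20 (-0.30 to -0.09), the adhesion gene Cdh1 147 and 41, at -0.36, and the protease inhibitor gene Spint2 2302 and 847, at 0.04. Krt18 was lower at -0.93 (2520 and 474 UMIs, -1.08 to -0.79) and Krt8 at -0.51. The gene past 2-fold was Esrp2, an epithelial splicing regulator with 22 and 0 UMIs, at least 2.63-fold lower.

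**Figure D4:**
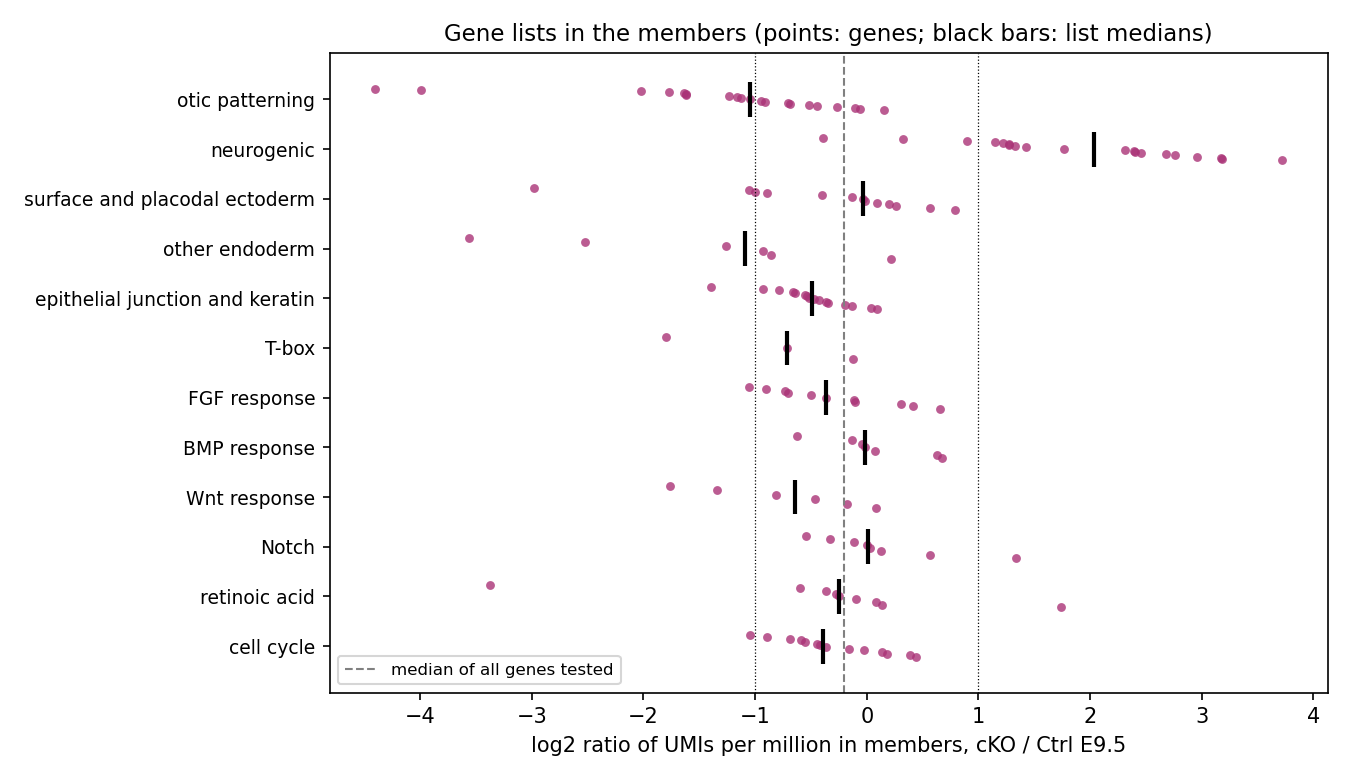
Log2 ratio of UPM in the members, cKO over Ctrl E9.5, for the genes of 12 lists with at least 20 UMIs (points), list medians (black bars) and the median of all genes tested (dashed line, -0.21); dotted lines mark 2-fold. The neurogenic list lies to the right, with a median of 2.03, and the otic patterning and other endoderm lists to the left, with medians of -1.05 and -1.09.

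Retinoic acid genes held single large differences. Crabp1, which binds retinoic acid in the cytoplasm, had 2845 UMIs in 306 Ctrl members and 3404 in 124 cKO members, at 1.74 (1.67 to 1.81). It was at 1.52 in surface-marked members, 2.21 in unassigned members that were not neuroblast-marked, 1.85 in the endoderm and 0.20 in barcodes outside the members. In otic-marked members it was at -0.65 (640 and 18 UMIs, -1.41 to 0.02), in neuroblast-marked members at 0.17 (448 and 1027 UMIs) and in endoderm-marked members at 0.79 (147 and 47 UMIs), none past 2-fold. Thinned, it was in 75.3% and 93.7% of members, and mesenchymal barcodes held it in 61.6% and 71.2%. Cyp26a1, which breaks retinoic acid down, had 87 UMIs in 45 Ctrl members and 3 in 3 cKO members, at -3.38 (-5.68 to -1.78). Thinned, it was in 7.85% and 2.38% of members and in 35.9% and 19.3% of mesenchymal barcodes, so its share in members was below that level. It had 30 and 1 UMIs in surface-marked members and was at -1.99 in the endoderm. Of the 13 listed genes 9 were measured, with 1 past 2-fold higher and 1 lower, beside 1.81% and 4.96% of all genes. The other 7 lay within 2-fold, among them the synthesis gene Aldh1a3 (54 and 16 UMIs) and Crabp2 (0.14).

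Counts in pathway lists stand beside 1.81% (higher) and 4.96% (lower) of all genes past 2-fold. Of 11 measured FGF response genes 1 passed 2-fold: Spry2, a feedback inhibitor, had 307 UMIs in 142 Ctrl members and 53 in 29 cKO members, at -1.05 (-1.50 to -0.63). In the endoderm Spry2 was at 0.78 (0.51 to 1.05). Dusp6 (-0.70) and Etv5 (-0.73) were lower without passing 2-fold. Of 6 Wnt response genes 2 passed, Sp5 and Tcf7 (141 and 20 UMIs, -1.34). Of 7 BMP response genes none passed, with Id1 at 0.67 (2096 and 1197 UMIs). Of 8 Notch genes 1 passed: Notch1 had 85 UMIs in 67 Ctrl and 77 in 39 cKO members, at 1.34 (0.87 to 1.80), and was at -0.55 in the other barcodes. Of 14 cell cycle genes 1 passed, Ccnd2 (2297 and 398 UMIs, -1.05), and Mki67 was at 0.39.

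Tbx1 itself had 484 UMIs in 205 Ctrl members and 106 in 48 cKO members, at -0.71 (-1.03 to -0.41). In the endoderm it was at 0.68 (0.49 to 0.87) and in the barcodes outside the members at 0.36. Reads from the 3′ end of a floxed gene need not come from the deleted part, so these counts were not taken as a check of the genotype. Tbx2 (68 and 7 UMIs) was at -1.80 (-3.17 to -0.68), and Tbx3 (91 and 30 UMIs) at -0.12.

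Members were also set against the pharyngeal endoderm of the same library. In Ctrl, Tfap2a was at 53.1 UPM in members and 4.12 in endoderm, and in cKO at 67.8 and 3.85. Foxi2 was at 148 against 10.7 UPM in Ctrl and at 171 against 12.8 in cKO. Thinned, Wnt6 was in 39.0% of Ctrl members and 11.8% of Ctrl endoderm barcodes, and Trp63 in 9.59% and 2.80%. In cKO Wnt6 was in 20.6% and 8.45% and Trp63 in 7.14% and 1.41%, with overlapping intervals. Krt15, Krt5 and Grhl3, with at most 25 UMIs in a group, did not separate the groups in Ctrl. The log2 ratio of Krt15 was -0.50 (-1.48 to 0.45), of Krt5 0.80 (-1.57 to 3.48) and of Grhl3 1.06 (-1.17 to 3.69). The otic gene Lmx1a was higher in members than in endoderm in Ctrl, at 16.9 against 1.37 UPM, and was at 0.798 against 2.57 in cKO, where the interval of the log2 ratio (-5.15 to 1.12) held 0. Neurog2 was higher in members in both libraries, 64.1 against 3.29 and 172 against 6.41 UPM. The classes are defined by counts of the same barcodes, so these levels are descriptions.

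**Figure D5:**
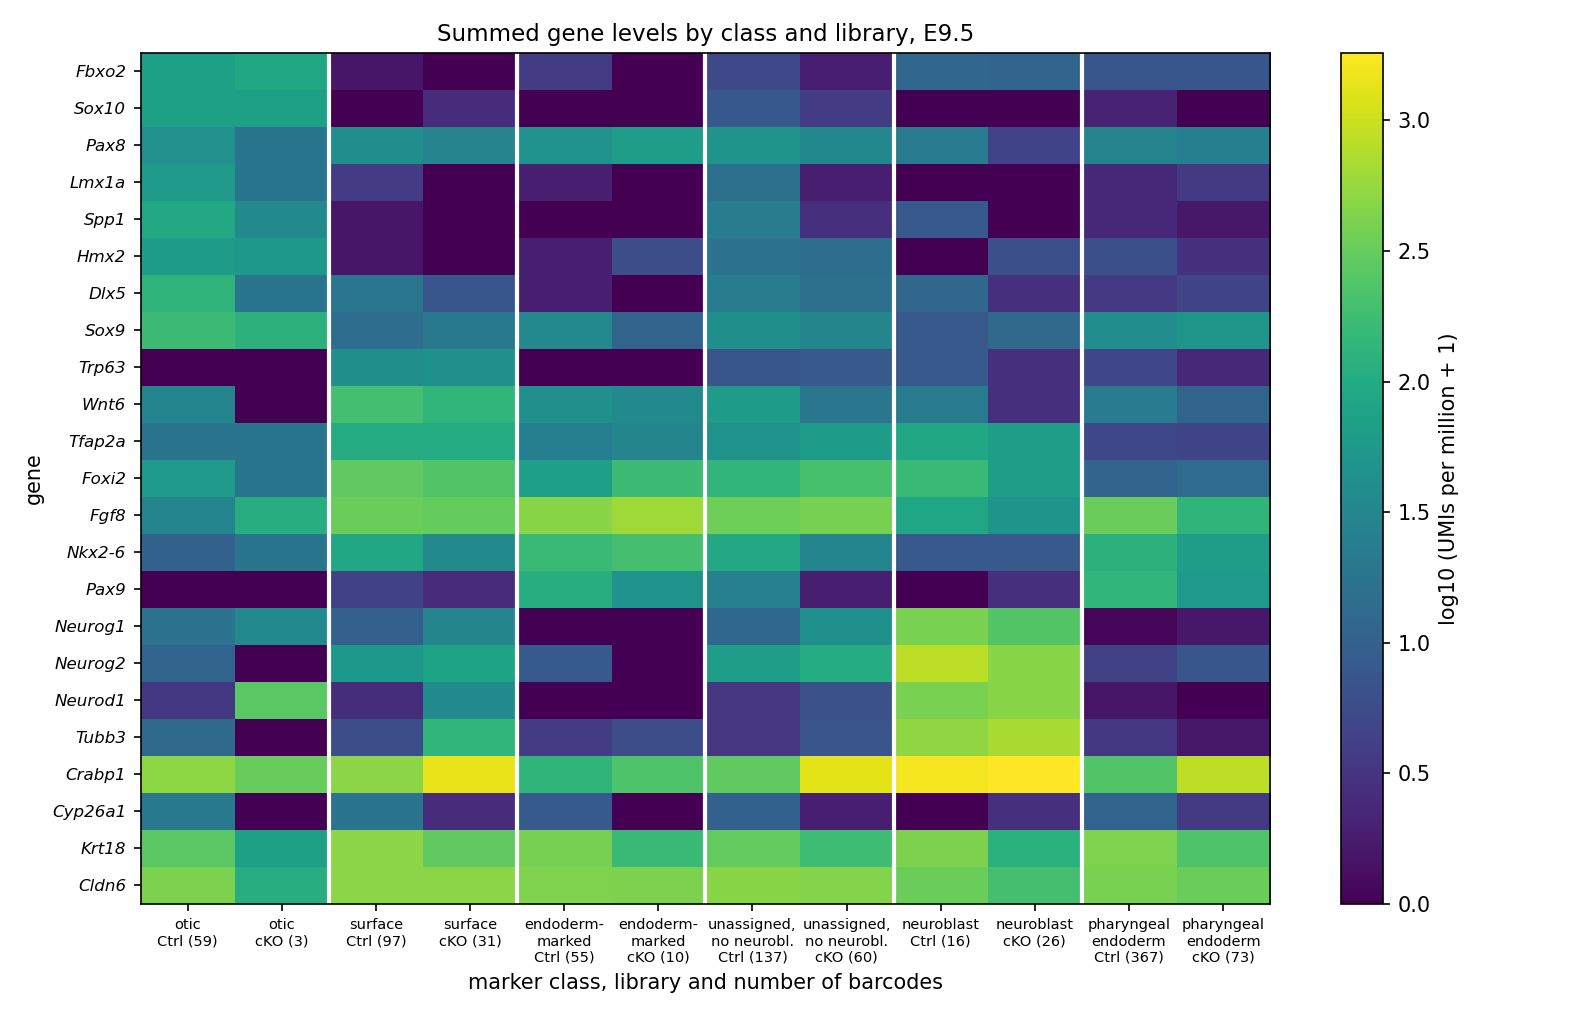
Summed level of named genes (rows) as log10 of UPM + 1 in each marker class and in the pharyngeal endoderm, Ctrl and cKO side by side, with the number of barcodes under each column. Crabp1 is brighter in the cKO column of the surface class, of the unassigned class and of the endoderm, and Lmx1a and Spp1 are bright in the Ctrl otic column.

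Markers of other cell types moved with the genotype only in part. The 5 mesenchyme genes were all detected and summed to 286 UPM in Ctrl and 297 UPM in cKO members, from 0 to 862 and from 0 to 926 in single members, against 836 and 808 UPM in mesenchymal barcodes. Prrx2 made up most of this sum (1817 and 654 UMIs). Of the endothelial list Tie1 was at 0 in both, and of the neural tube list Sox1 and Olig2. The endothelial list summed to 39.0 and 44.3, the heart muscle list to 33.0 and 29.5, the blood list to 4.29 and 5.59 and the neural tube list to 6.58 and 14.4 UPM. The part of these cells or of their free RNA in the results was not tested.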

How the data were processed

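Single-cell RNA-seq libraries of sorted Tbx1Cre-lineage cells were made with a 3′ kit, 1 library per group. The deposited matrices hold UMI counts that the authors made with Cell Ranger (3.1.0 in the submitters' processing notes) on the mm10 (GRCm38) genome, without normalization or cell annotation. The deposited counts were summed per gene over 27514 Ensembl identifiers shared by the E9.5 gene tables (27998 and 31053 genes), with 94834703 UMIs in Ctrl and 104773150 in cKO, and divided by the UMIs of the same barcodes (UPM). Every deposited barcode was kept.

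With 1 library per group no test between groups was possible, and the study's own model over cells was not used. Shares have exact Clopper-Pearson intervals, differences of shares Newcombe intervals and ratios exact conditional binomial intervals, all at 95% and for counting error only. A sum of 0 was set to a floor of 3 UMIs to give a bound, and no ratio is given when both sums were at or under it. A gene counted toward a list with 20 UMIs over both libraries and toward the background with 50. Called means past 2-fold. Named genes were the list genes and the 10 highest and 10 lowest in members (8 and 8 in otic-marked members) with 100 UMIs, the same symbol in both tables and 2-fold also after subtraction of the ratio of all other barcodes, without genes of the rule, of the Y chromosome, Xist, haemoglobin, mitochondrial or ribosomal protein genes. Some genes of the lists and of the named set are not reported here. The 15 genes leading a class in Ctrl were a description. Mesenchymal background barcodes had 3 or more Pdgfra UMIs and none of Epcam, Cdh5 or Pecam1. Members, lists and marker classes were chosen with earlier results of these data known. The computation was tested on simulated data, and ran in Python 3.11.15 (numpy 2.4.6, scipy 1.17.1, pandas 2.3.3) and R 4.3.3 with edgeR and DESeq2 for scaling factors. Alternatives changed the Epcam limit, the class rule, the scaling, the depth (10000 UMIs per barcode) and the barcodes kept.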

Additional observations from a re-analysis of the deposited data

Results flagged for a closer look

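The same rule found 5 members among 1434 Ctrl and 7 among 1090 cKO barcodes at E8.5, which no comparison above used. In these few cells Pax2 had a UMI in 3 cKO members (7 UMIs), Pax8 in 2 and Sox10 in 2, and none of these genes had a UMI in the 5 Ctrl members. They were marked because a signal stood above the control level in data outside the comparisons. With 5 Ctrl members, a count of 0 allows a share of members with a UMI of up to 60% by the limit of 3 counts (exact upper end 52.2%), so no difference was detectable at this depth. Neurog1, Neurog2 and Neurod1 were at 0 in all 12 of these barcodes.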

How the results depend on the processing

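No paired analysis was possible because each group was 1 library. The share of barcodes that are members stayed lower in cKO under all 5 alternatives (by -4.12 to -4.99 points). The otic-marked share difference of -14.0 points moved to -2.82 with 3 genes required (-5.36 to 0.99, which holds 0), -2.22 with Oc90 and Pax2 (-4.31 to 0.89) and -7.13 thinned to 10000 UMIs. As a share of members, the surface-marked difference stayed within its interval. Shares of all barcodes are on another scale and cannot be judged by those intervals. On that scale the otic-marked difference was -1.03 points (-1.35 to -0.77). The surface-marked one was -1.28 points (-1.70 to -0.90), and neither interval held 0.

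The neurogenic median of 2.03 was 1.25 with the other barcodes subtracted, 1.27 without members carrying other markers, 1.50 without the deepest barcodes, 1.69 thinned and 0.57 without neuroblast-marked members, where 6 genes passed 2-fold higher. A fall in that last setting was built in, since neuroblast-marked members were chosen by neurogenic genes. The otic patterning median of -1.05 was -0.36 with the other barcodes subtracted (5 genes past 2-fold lower). Without otic-marked members 7 genes passed, but unassigned Ctrl members with otic genes were still included. The counts of 163 and 447 genes were 517 and 976 from 10 UMIs, and the lower count was 296 by DESeq2 and 89 with the other barcodes subtracted. In surface-marked members the neurogenic median of 1.71 was 0.31 with the other barcodes subtracted, 0.20 without other markers, -0.10 without the deepest barcodes, 0.46 without neuroblast-marked members and -0.42 with 3 genes required, and the otic median of -0.90 was 0.073 with the other barcodes subtracted. Signs changed with the other barcodes subtracted for Fgf10 (0.49), Fgf3 (0.26) and Nkx2-6 (1.28) in members and Dlx5 (0.20) in surface-marked members, without neuroblast-marked members for Nefm (-1.38) and surface-marked Stmn2 (-0.37), and with 3 genes required for otic-marked Spp1 (0.41) and surface-marked Tubb3 (-0.91). The causes were not tested. Of 555 gene values in members under the alternatives, 455 stayed within the counting interval. That share differed by alternative. With the other barcodes subtracted only 17 gene values stayed, 36 moved outside the interval and 3 changed sign. The alternatives with neuroblast-marked or otic-marked members left out were chosen after seeing the data.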

Other observations

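Hox genes were on none of the lists. Hoxb5 had 32 UMIs in 24 Ctrl members and 55 in 23 cKO members, a log2 ratio of 2.26 (1.61 to 2.94), and Hoxb4 had 60 in 30 and 72 in 24, at 1.74 (1.23 to 2.26). In the other barcodes these genes were at 0.28 and 0.43. In cKO 54 of the 55 Hoxb5 and 69 of the 72 Hoxb4 UMIs were in unassigned members. Hoxb3 had 33 and 26 UMIs (1.14, 0.34 to 1.92), Hoxb6 8 and 3 (0.06, -2.48 to 2.12), Hoxb1 386 and 225 UMIs (0.70), Hoxb2 863 and 442 (0.51) and Hoxa3 126 and 49 (0.12, -0.39 to 0.60). These genes were chosen after their values were seen, and the values rest on 1 library per genotype.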
